A study of Mus musculus with 16 samples.

Results

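The genes described here carry dietary fat and cholesterol through the enterocyte, the absorptive cell of the small intestine. They were taken from a list of 34 genes and read across all 5 groups of a microarray series from mouse small intestine. Each gene was read from its brightest probe set that the platform annotation gives 1 gene symbol. This rule found 32 of the 34 genes, and all 32 were among the 18095 genes tested, out of 22180 genes on the array with such a probe set. Soat2, the cholesterol-esterifying enzyme, was not analysed here because no probe set was named for it. Cideb, a protein of lipid droplets and lipoprotein loading, was not analysed because its probe set also carries the symbol Nop9.

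In the enterocyte, fatty acids and monoacylglycerols from digested fat are taken up, bound by cytosolic carriers, activated to acyl-CoA and joined again into triglyceride at the endoplasmic reticulum. Microsomal triglyceride transfer protein then loads the triglyceride onto apolipoprotein B to form chylomicrons, which leave the cell in COPII vesicles for the lymph. Cholesterol enters by a separate transporter, and part of it is pumped back into the lumen by a pair of ABC transporters that work as 1 complex.

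The adenoma group held cells of small intestinal adenomas from 4 C57Bl/6 mice of genotype Apc+/1638N (animals P21, P23, P34 and P36), which carry a mutation in 1 copy of Apc, the brake on Wnt signalling. The titles of P21 and P23 hold the code T2, which the labels do not explain, and P21 and P34 were each measured on 2 arrays that were averaged. Wild-type crypt organoids of the same strain were profiled after 24 h of indirect co-culture with myofibroblasts on an insert with 0.4 µm pores (epithelium co-culture, animals P28 and P30) and alone (epithelium monoculture, the same animals). Wild-type myofibroblasts were profiled in co-culture with organoids and alone (animals Pl_I, Pl_II and Pl_III in both groups). All mice were labelled male and 8 to 10 weeks old. The labels describe no separate culture of the adenoma cells, so genotype, lesion and any difference in culture cannot be told apart, and the label of each adenoma adds a number of 3 without saying what it counts. All values are log2 levels, a difference of 1 being a 2-fold change, and the arrays' medians lay between 3.48 and 3.58. Differences are given ± SE from limma, a gene was called at an adjusted p under 0.05, and p-values measure the spread between these samples only. In the reported fit that spread is 1 estimate per gene shared by all groups, so the scatter of fibroblasts enters every comparison.

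The 12 epithelial markers averaged 9.86 to 10.89 per adenoma sample and 10.96 to 11.02 in epithelium monoculture, against 3.25 to 3.68 in fibroblast monoculture. The 11 fibroblast markers averaged 10.73 to 10.88 in fibroblast monoculture, against 3.59 to 3.68 in epithelium monoculture. The fibroblast samples also carried 13 macrophage and immune markers at a mean of 8.46 to 9.08 in monoculture, against 4.03 to 4.10 in epithelium monoculture. Xist, which is transcribed from an inactive X chromosome, lay at 7.57 to 8.29 in 4 of the 14 samples, namely both cultures of P28 and both of Pl_III, although these mice were labelled male. Of the 8 absorptive enterocyte markers, among them sucrase-isomaltase, all 8 fell in adenoma against epithelium monoculture, where 18.5% of all genes tested fell. The mean of these markers was 4.65 to 4.84 in adenoma samples, against 11.30 to 11.47 in epithelium monoculture. How far the changes of the fat absorption genes follow the share of such cells was not tested, and in bulk RNA fewer cells of a type and less RNA per cell cannot be told apart.

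The promoter letters of a few of these genes are shown because the genes lie among those with the largest differences between adenoma and normal epithelium, or, for Apob, because it kept a high level in adenoma. The sequences are RefSeq windows of build GRCm38.p6, from 250 bases before to 50 bases after a start listed for the gene, and 28 of the 34 genes had 35 such windows in all. For Apob and for the Abcg8 window shown in part, that start lies inside the gene, downstream of its first base in RefSeq (chr12:7977629 and chr17:84676302). 4 motifs were searched on both strands, and they were settled after first matches had been seen: AGGTCA, the half-site of nuclear receptors (in 5 of the 35 windows of these genes and 16.3% of all 32851 windows), CAAAGT, a core of HNF4-type sites (9 of 35, 14.4% of all windows), AGATAA, the GATA motif (3 of 35, 11.2%), and TATAAA, the TATA box (8 of 35, 13.6%). Capitals mark matches on either strand, and a match describes letters, not a bound site. The windows of Fabp1 (chr6:71199629-71199928), Fabp2 (chr3:122894822-122895121), Apoa4 (chr9:46240594-46240893) and Apob (chr12:7977427-7977726) are on the + strand.
Fabp1: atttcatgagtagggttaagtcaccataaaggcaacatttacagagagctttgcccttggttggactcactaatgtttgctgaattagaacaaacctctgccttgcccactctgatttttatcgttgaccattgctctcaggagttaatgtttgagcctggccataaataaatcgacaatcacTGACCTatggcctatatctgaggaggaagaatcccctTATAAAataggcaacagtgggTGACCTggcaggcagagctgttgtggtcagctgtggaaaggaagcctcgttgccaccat
Fabp2: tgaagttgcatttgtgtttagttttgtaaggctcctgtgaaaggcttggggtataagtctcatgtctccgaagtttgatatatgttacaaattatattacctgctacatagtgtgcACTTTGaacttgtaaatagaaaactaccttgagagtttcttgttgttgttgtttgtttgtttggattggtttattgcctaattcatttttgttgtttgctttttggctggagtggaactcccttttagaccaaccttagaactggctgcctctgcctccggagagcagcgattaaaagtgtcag
Apoa4: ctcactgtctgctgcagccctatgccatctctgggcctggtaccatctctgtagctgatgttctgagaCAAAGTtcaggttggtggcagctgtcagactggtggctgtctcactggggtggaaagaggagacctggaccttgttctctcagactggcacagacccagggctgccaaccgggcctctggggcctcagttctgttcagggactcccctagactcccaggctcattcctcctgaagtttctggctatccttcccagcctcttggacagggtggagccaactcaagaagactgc
Apob: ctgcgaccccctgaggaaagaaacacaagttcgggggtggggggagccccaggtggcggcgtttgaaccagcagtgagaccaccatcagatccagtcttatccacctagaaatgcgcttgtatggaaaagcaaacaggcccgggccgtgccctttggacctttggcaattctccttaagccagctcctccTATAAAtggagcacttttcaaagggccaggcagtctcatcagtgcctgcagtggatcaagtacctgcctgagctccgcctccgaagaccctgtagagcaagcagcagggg
Fabp1 holds the half-site at 2 positions beside a TATA box, Fabp2 and Apoa4 each hold 1 HNF4-type core, and Apob holds a TATA box. Abcg5 and Abcg8 are neighbours on chromosome 17, and their windows overlap by 209 bases (chr17:84682962-84683170, + strand). The overlap holds 3 GATA matches and 1 TATAAA match, which reads on the - strand.
Abcg5 and Abcg8 shared: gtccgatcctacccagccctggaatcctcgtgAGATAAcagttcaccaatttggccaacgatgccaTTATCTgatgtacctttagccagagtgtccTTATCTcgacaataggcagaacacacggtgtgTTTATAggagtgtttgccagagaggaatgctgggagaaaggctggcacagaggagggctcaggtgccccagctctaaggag

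The first comparison set adenoma against normal epithelium. Of the 32 genes, 30 were lower in adenoma than in epithelium monoculture and 0 were higher, where 18.5% of all genes tested were called lower and 22.5% higher. The median difference of the 32 genes was -3.05, against -0.03 over all genes tested. By role, 6 of 7 uptake and efflux genes, both lumenal lipases, all 3 genes of fatty acid binding and activation, 7 of 7 genes of re-esterification, 8 of 8 of lipoprotein assembly and export, 3 of 4 of lipid droplets and lipolysis, and the regulator Creb3l3 fell. The medians of these groups were -4.12, -2.04, -7.98, -1.80, -4.09, -1.21 and -6.65. Thus 16 of the genes fell by 3 or more, and these are given by sample.

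**Figure D1:**
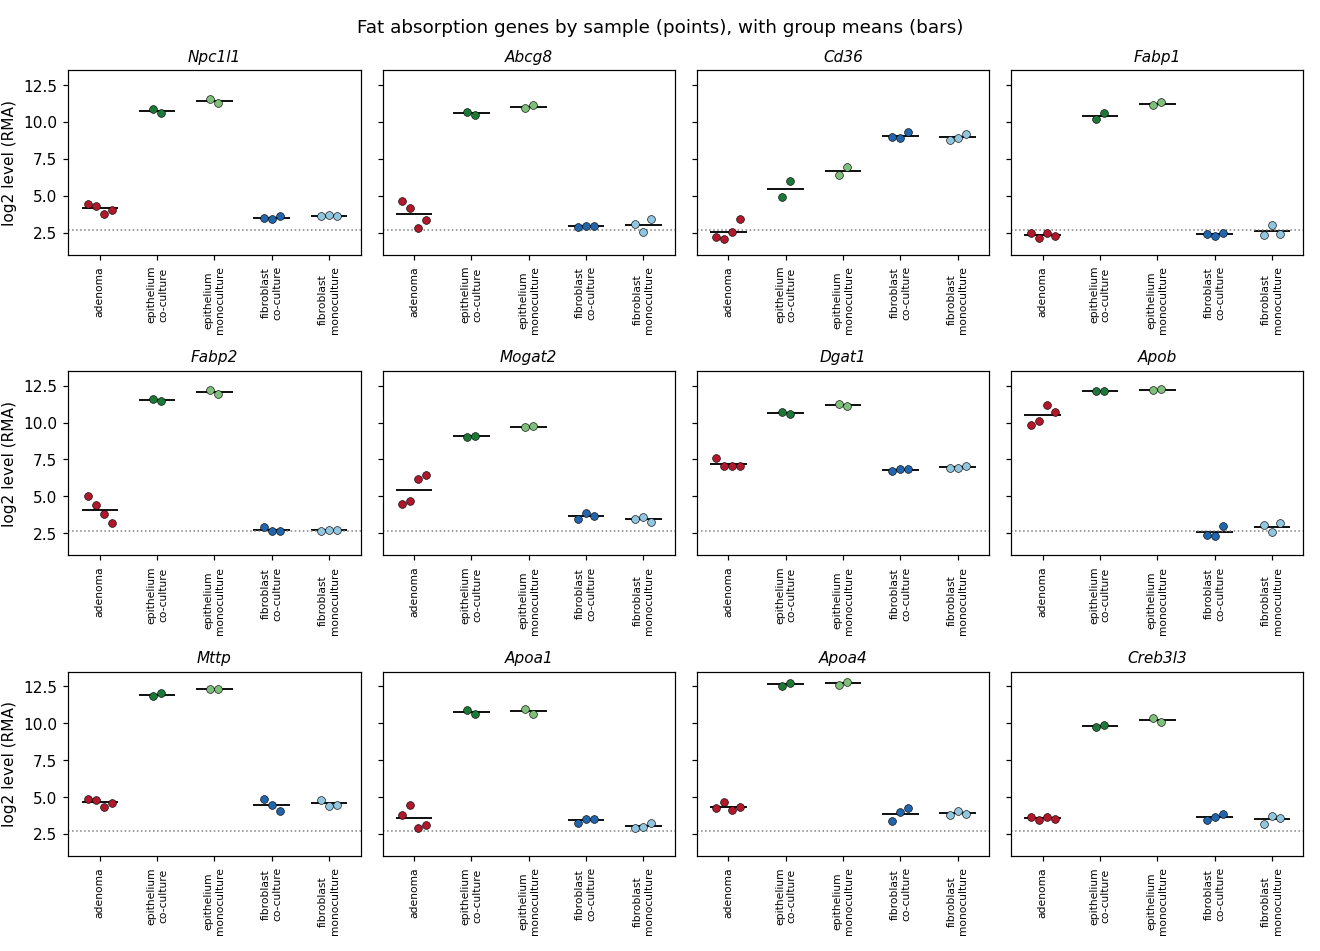
Log2 level of 12 fat absorption genes in every sample (points) with group means (bars), from left to right adenoma, epithelium co-culture, epithelium monoculture, fibroblast co-culture and fibroblast monoculture; the dotted line is the dim level of 2.67. In each panel the 4 adenoma samples lie below all 4 epithelium samples, and for Apob the gap is the narrowest of the 12, with adenoma between 9.82 and 11.22. The 12 genes are a choice from the 32, and the share of all genes that separate in this way was not computed.

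Npc1l1 is the transporter that takes cholesterol up from the lumen. Its level was 4.46, 4.33, 3.77 and 4.05 in adenoma animals P21, P23, P34 and P36, against 10.88 and 10.63 in co-cultured and 11.58 and 11.30 in monocultured epithelium of P28 and P30. It fell by 7.29 ± 0.18 against monoculture (adjusted p = 8.67e-11). Abcg5 and Abcg8 form the complex that pumps sterols back out. Abcg8 stood at 4.66, 4.13, 2.84 and 3.32 in adenoma, against 10.68 and 10.46 in co-culture and 10.92 and 11.12 in monoculture. Abcg5 stood at 3.59, 3.86, 2.53 and 2.66 in adenoma, against 9.04 and 9.21 in co-culture and 9.19 and 9.51 in monoculture. Abcg8 fell by 7.28 ± 0.40 and Abcg5 by 6.19 ± 0.36, and in both the 2 adenomas with T2 in the title were the higher ones. Slc27a4, a fatty acid transport protein with acyl-CoA synthetase activity, had 7.87, 7.72, 7.51 and 7.42 in adenoma, against 10.56 and 10.29 in co-culture and 11.10 and 10.93 in monoculture, a difference of -3.39 ± 0.14. Cd36, a fatty acid translocase, had 2.20, 2.07, 2.52 and 3.41 in adenoma, against 4.94 and 6.01 in co-culture and 6.38 and 6.95 in monoculture. Its adenoma mean lies under the dim level of 2.67, the 30th percentile of probe set means, so that only a bound holds: Cd36 was lower by at least 3.81, or at least 14-fold. Scarb1, a receptor for high-density lipoprotein, fell by 1.91 ± 0.32. Abca1, which exports cholesterol to apolipoprotein A-I, was not called, at a mean of 3.26 ± 0.31 (SD, n = 4) in adenoma and 3.54 ± 0.04 (SD, n = 2) in epithelium monoculture. Its shared spread includes fibroblast SDs of 1.49 in monoculture and 1.23 in co-culture.

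Both lipases that act at the lumenal side fell. Pnliprp2, a lipase related to pancreatic lipase, had 4.53, 5.23, 4.49 and 6.17 in adenoma, against 8.78 and 8.86 in co-culture and 8.54 and 8.60 in monoculture. The difference was -3.47 ± 0.37 (adjusted p = 1.26e-05), and P36 was the highest adenoma. Plb1, the brush border phospholipase B, was called lower, at -0.62 ± 0.15, with every level between 2.75 and 3.58 in these groups. Those levels are near the dim level of 2.67, so the size of this difference is not exact.

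Both cytosolic fatty acid binding proteins fell. Fabp1, the liver-type carrier, had 2.47, 2.15, 2.49 and 2.24 in adenoma, against 10.19 and 10.63 in co-culture and 11.13 and 11.33 in monoculture. All 4 adenoma values lie under the dim level, so Fabp1 was lower by at least 8.56, or at least 376-fold (adjusted p = 5.32e-11). Fabp2, the intestinal-type carrier, had 5.05, 4.39, 3.77 and 3.20 in adenoma, against 11.59 and 11.48 in co-culture and 12.20 and 11.96 in monoculture. The Fabp2 difference was -7.98 ± 0.37, and adenoma animals spread over more than 1 unit. Acsl5, which activates long-chain fatty acids, differed far less, at 10.79 to 11.43 in adenoma, 11.49 and 11.58 in co-culture and 11.58 and 11.71 in monoculture. Its difference of -0.54 ± 0.20 (adjusted p = 0.0448) was not called against co-culture (-0.42, adjusted p = 0.13).

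Re-esterification begins with Mogat2, which joins a fatty acid to monoacylglycerol, and ends with Dgat1 and Dgat2, which make triglyceride. Mogat2 had 4.50, 4.69, 6.18 and 6.46 in adenoma, against 9.05 and 9.12 in co-culture and 9.68 and 9.77 in monoculture. Dgat1 had 7.57, 7.04, 7.08 and 7.04 in adenoma, against 10.74 and 10.60 in co-culture and 11.25 and 11.15 in monoculture. Dgat2 had 6.82, 7.0, 8.05 and 8.06 in adenoma, against 10.69 and 10.56 in co-culture and 10.69 and 10.96 in monoculture. No adenoma reached the epithelium in any of the 3 genes, and their differences were -4.26 ± 0.46, -4.01 ± 0.15 and -3.34 ± 0.51. Mogat2 and Dgat2, neighbours on chromosome 7, both stood lower in P21 and P23 than in P34 and P36, although for Dgat2 that difference did not pass the test (adjusted p = 0.276). The shared spread of Dgat2 includes fibroblast SDs of 0.78 in monoculture and 0.83 in co-culture. The enzymes of the glycerol phosphate route and of phospholipid remodelling also fell. Agpat2, which makes phosphatidic acid, differed by -0.95 ± 0.13, the phosphatidate phosphatases Lpin3 and Lpin2 by -1.49 ± 0.19 and -1.80 ± 0.17, and Lpcat3, which puts polyunsaturated chains into phospholipid, by -1.07 ± 0.23. Lpin2 was the one gene of the 32 with a second probe set, which gave -2.28 in the same comparison, and -0.61 for co-culture minus monoculture, against 0.06 on the probe set used.

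Among the genes of lipoprotein assembly, the structural protein and its loading factor differed by unlike amounts. Apob, the backbone of the chylomicron, had 9.82, 10.14, 11.22 and 10.74 in adenoma, against 12.12 and 12.17 in co-culture and 12.18 and 12.28 in monoculture, a difference of -1.75 ± 0.34 (adjusted p = 0.00112). Mttp, the microsomal triglyceride transfer protein, had 4.83, 4.77, 4.36 and 4.61 in adenoma, against 11.84 and 12.05 in co-culture and 12.32 and 12.30 in monoculture, a difference of -7.67 ± 0.22 (adjusted p = 2.60e-10). Adenoma thus lay below epithelium in both, without overlap. Apobec1 edits the Apob transcript to the short intestinal form, and it fell by 2.30 ± 0.38. Apoa1 and Apoa4 are apolipoproteins that the intestine adds to its particles, and with Apoc3 they lie side by side on chromosome 9. Apoa4 had 4.25, 4.64, 4.15 and 4.35 in adenoma, against 12.55 and 12.74 in co-culture and 12.58 and 12.83 in monoculture. Apoa1 had 3.76, 4.45, 2.90 and 3.13 in adenoma, against 10.92 and 10.62 in co-culture and 10.99 and 10.65 in monoculture. These are differences of -8.36 ± 0.22 and -7.26 ± 0.34. Apoc2, the activator of lipoprotein lipase, had 4.54, 4.35, 4.68 and 4.19 in adenoma, against 9.27 and 9.72 in co-culture and 9.73 and 9.99 in monoculture, a difference of -5.42 ± 0.55. A further probe set that Apoc2 shares with Apoc4 was not used. Apoc3, an inhibitor of that lipase, fell by 2.76 ± 0.14, and Sar1b, the GTPase of the COPII coat needed for chylomicron export, by 1.33 ± 0.10.

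Genes of lipid droplets and lipolysis had the smallest median difference of the groups. Plin3, a droplet coat protein, fell by 2.30 ± 0.17. Lipa, the lysosomal acid lipase, fell by 1.78 ± 0.53 (adjusted p = 0.0177), and Pnpla2, the triglyceride lipase of droplets, by 0.37 ± 0.12 (adjusted p = 0.0221). Mgll, the monoglyceride lipase, was not called (-0.64 ± 0.63, adjusted p = 0.471). Its SD was 0.32 in adenoma and 0.01 in epithelium monoculture, but 1.16 in fibroblast monoculture and 1.24 in fibroblast co-culture, which share in that SE. Creb3l3 is a membrane-bound transcription factor of lipid metabolism genes. It had 3.63, 3.45, 3.63 and 3.54 in adenoma, against 9.73 and 9.86 in co-culture and 10.34 and 10.08 in monoculture, a difference of -6.65 ± 0.16 (adjusted p = 6.95e-11). The 4 adenomas lay far below all 4 epithelium samples.

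Against co-cultured epithelium, 28 of the 32 genes were lower in adenoma and 0 higher, where 14.3% of all genes tested were called lower and 19.0% higher. The median was -2.56, against 0.01 over all genes. The 4 genes not called were Abca1, Acsl5, Mgll and Scarb1. Scarb1 averaged 8.90 ± 0.10 (SD, n = 4) in adenoma and 9.31 in co-culture, a difference of -0.41 ± 0.32 (adjusted p = 0.39). Some calls were lost when 1 sample was left out, a fit with fewer samples. Against monoculture, those of Acsl5 (adjusted p = 0.112 and 0.204) and Lipa (0.0562 and 0.122) were lost without P28 or without P30, those of Pnpla2 (0.162) and Plb1 (0.0707) without P30, and that of Acsl5 also without adenoma P21 or P23 (0.1 and 0.092). In these fits Acsl5 differed by -0.43 to -0.60 and Lipa by -1.57 to -1.99, close to the fitted -0.54 and -1.78. Against co-culture, Lipa and Lpcat3 were lost without P28 or without P30 (adjusted p = 0.107 to 0.175), Plb1 and Pnpla2 without P28 (0.476 and 0.0774), and Lipa, Lpcat3 and Plb1 with single adenomas left out (0.0517 to 0.0895). Plb1 differed by -0.20 without P28, against -0.44 with all samples.

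Adenoma was then set against fibroblasts, cells that make no chylomicrons, to place its levels. Of the 32 genes, 11 were higher in adenoma and 5 lower than in fibroblast monoculture, where 25.0% and 21.5% of all genes were called, and the median was 0.25, against 0.05 over all genes. The remaining 16 were not called. Apob had 9.82, 10.14, 11.22 and 10.74 in adenoma, against 3.08, 2.57 and 3.16 in fibroblast monoculture, a difference of 7.54 ± 0.30 (adjusted p = 9.41e-10). Pnliprp2, Mogat2, Acsl5, Agpat2, Dgat2, Fabp2, Pnpla2, Lpcat3, Npc1l1 and Plin3 were higher by 2.07, 2.02, 1.91, 1.72, 1.62, 1.42, 1.08, 0.93, 0.51 and 0.43. Fabp2 lay at 2.62 to 2.73 in fibroblast monoculture, near the dim level of 2.67, so its difference has no exact size. The 5 lower genes were Cd36, by at least 6.09 since adenoma lies under the dim level, Abca1 (-4.45 ± 0.63), Mgll (-2.80 ± 0.56), Lipa (-1.96 ± 0.47) and Sar1b (-0.31 ± 0.09).

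The 16 genes not called included several that fell most against epithelium. For Mttp the difference from fibroblasts was 0.07 (95% interval -0.35 to 0.50), for Creb3l3 0.07 (-0.23 to 0.38), for Slc27a4 -0.00 (-0.27 to 0.27) and for Dgat1 0.22 (-0.08 to 0.51). Wider intervals held for Apoa1 (0.53, -0.12 to 1.19) and Abcg8 (0.72, -0.06 to 1.5). Abcg5 lay under the dim level in fibroblasts, so its difference has no exact size. Apoa4 differed by 0.46 (0.03 to 0.89, adjusted p = 0.0746), and the mean of Fabp1 lay under the dim level in both groups. The others were Apoc2, Apoc3, Apobec1, Scarb1, Lpin2, Lpin3 and Plb1, with differences between -0.75 and 0.28. A missed threshold does not show that the levels are the same. Among the called genes, Plin3 lost its call without P21, P23, P34, Pl_I or Pl_II (adjusted p = 0.0544 to 0.164), Npc1l1 without P21, P23 or Pl_I (0.0518 to 0.0587), Sar1b without Pl_I (0.0518) and Dgat2 without Pl_III (0.0561).

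**Figure D2:**
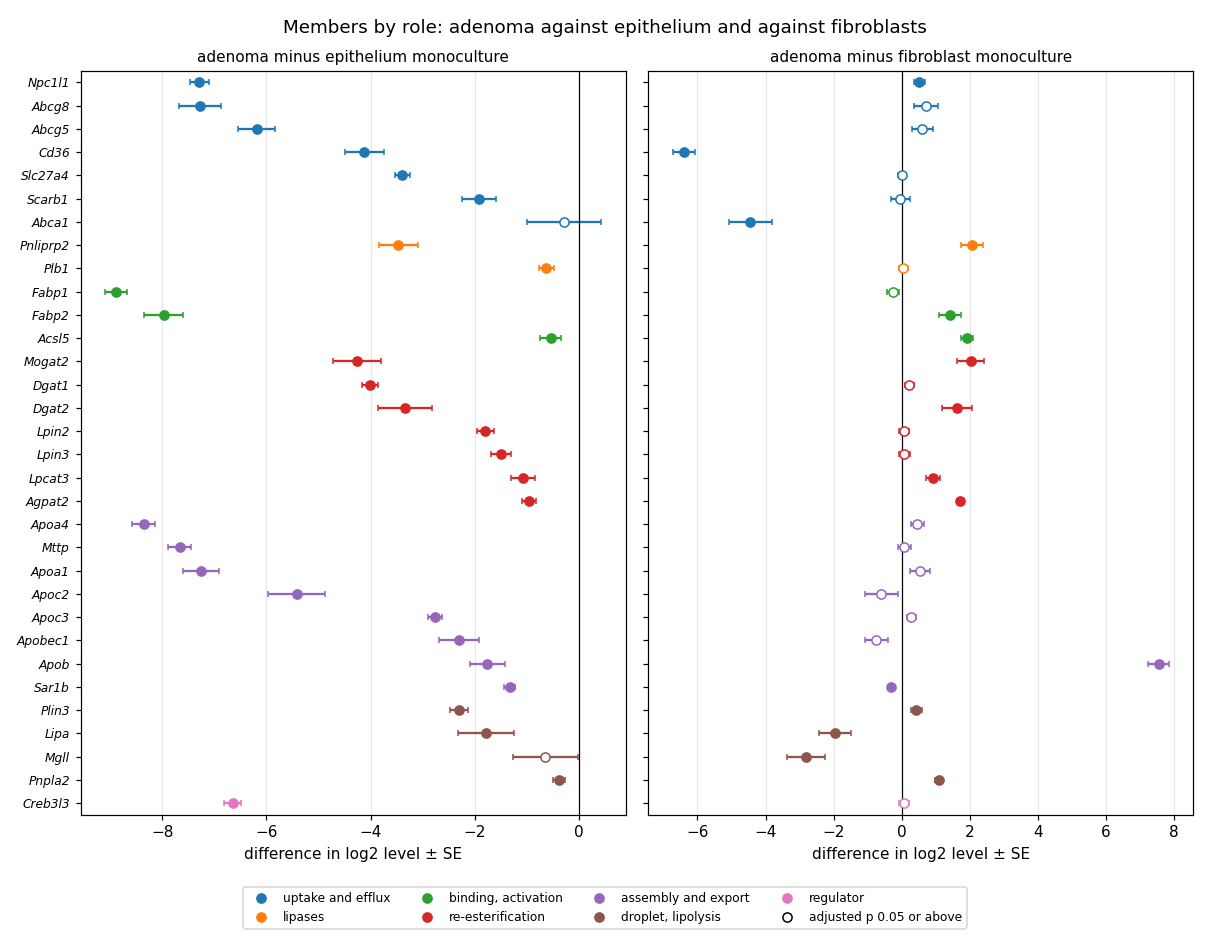
Difference in log2 level ± SE for the 32 genes, grouped by role, for adenoma minus epithelium monoculture (left) and adenoma minus fibroblast monoculture (right); open points have an adjusted p of 0.05 or above. All points on the left lie below 0, and on the right Apob stands apart at 7.54 while Mttp and Creb3l3 lie at 0.07.

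The second comparison asked what 24 h with myofibroblasts did to the epithelium. Scarb1 and Apoc3 fell, so that 2 of the 32 genes were lower and 0 higher in co-culture, where 1.32% of all genes tested were called lower and 2.71% higher. The median was -0.26, against -0.02 over all genes. An unadjusted p under 0.05 was found for 9 of the 32 genes, against 3065 of the 18095 genes tested. Both this comparison and that of adenoma with epithelium monoculture use the same monoculture samples, and no relation between them was computed.

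Scarb1 had 9.32 and 9.30 in co-culture, against 10.99 and 10.64 in monoculture of P28 and P30, a difference of -1.5 ± 0.37 (adjusted p = 0.0455). Apoc3 had 5.17 and 4.91 in co-culture, against 6.09 and 5.74 in monoculture, a difference of -0.87 ± 0.16 (adjusted p = 0.0117). In both genes the groups did not overlap and both animals moved the same way, which describes genes already picked by a test on these values. With the animal as a replicate block the differences kept their size, at adjusted p = 5.85e-04 for Scarb1 and 0.00489 for Apoc3. Scarb1 lost its call when any 1 of the 4 samples was left out (adjusted p = 0.101 to 0.253), and Apoc3 lost it without P28 in monoculture (adjusted p = 0.111) or without P30 in co-culture (adjusted p = 0.103).

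Most of the other genes lay lower in co-culture by amounts that did not pass the test. Of the 32 genes, 23 were lower in both animals and 3 higher in both, where 35.5% and 32.5% of all genes tested did so. Slc27a4 had 10.56 and 10.29 in co-culture, against 11.10 and 10.93 in monoculture (-0.59 ± 0.16, adjusted p = 0.0666). Fabp1 had 10.19 and 10.63 in co-culture, against 11.13 and 11.33 in monoculture (-0.82 ± 0.24, adjusted p = 0.083). Npc1l1, Dgat1, Sar1b and Cd36 differed by -0.69 ± 0.21, -0.53 ± 0.17, -0.35 ± 0.12 and -1.19 ± 0.43, with adjusted p between 0.101 and 0.167. By contrast the apolipoproteins Apoa1, Apoa4 and Apob differed by -0.05 ± 0.39, -0.06 ± 0.26 and -0.09 ± 0.39. The mean of the 8 absorptive enterocyte markers was 10.80 and 10.83 in co-culture, against 11.30 and 11.47 in monoculture. Of the 8 markers, 7 were lower and 1 higher, from -1.68 to 0.20, where 52.3% of all genes tested were lower. The test called 0 of them, where 1.32% of all genes were called lower and 2.71% higher. All 12 epithelial markers lay higher in co-culture, also with 0 called. The part of these markers in the differences above was not tested.

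**Figure D3:**
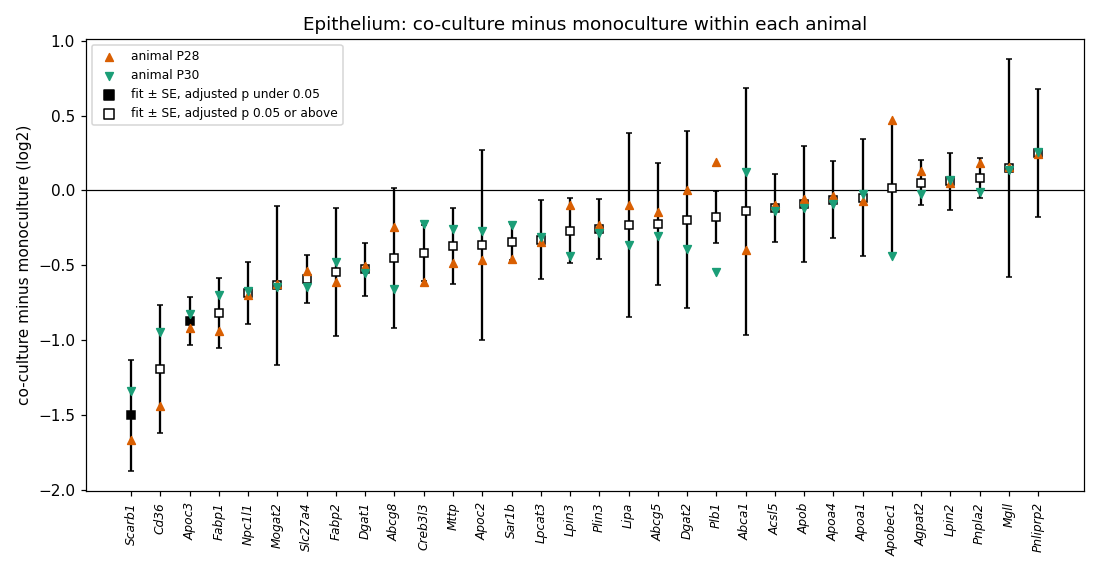
Co-culture minus monoculture in log2 level for the 32 genes in epithelium, within animal P28 and animal P30 (points) and as the fitted difference ± SE (squares, filled where the adjusted p was under 0.05). Filled squares mark Scarb1 at -1.5 and Apoc3 at -0.87, and 23 genes lie below 0 in both animals.

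In fibroblasts 0 of the 32 genes were called in co-culture against monoculture, with limma calling 0% of all genes higher and 0.00553% lower. Over the 18095 genes tested, 513 had an unadjusted p under 0.05, and so did 1 of the 32. That gene was Pnpla2, with 8.93, 8.85 and 8.94 in co-culture, against 8.55, 8.33 and 8.56 in monoculture of Pl_I, Pl_II and Pl_III, a difference of 0.43 ± 0.11. The median was -0.02, against 0.00 over all genes. The difference between both co-culture responses, epithelium minus fibroblast, was called for 0 of the 32 genes. Over all genes, 0.271% were called lower and 0.834% higher. An unadjusted p under 0.05 was found for 5 of the 32 genes, against 2293 of the 18095 genes tested. Once each animal entered the fit as a replicate block, 2 genes were called lower here, where 0.928% of all genes were called lower and 2.49% higher. These 2 genes were Scarb1 at -1.48 ± 0.17 (adjusted p = 0.00369) and Apoc3 at -0.76 ± 0.16 (adjusted p = 0.042).

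Monocultured fibroblasts differed from monocultured epithelium in nearly the whole pathway. Of the 32 genes, 28 were lower and 3 higher in fibroblasts, where 24.2% and 26.5% of all genes tested were called, and the median was -3.21, against -0.02. The lower ones ran from Fabp2 at -9.39 ± 0.39 and Apob at -9.29 ± 0.35 to Plb1 at -0.66 ± 0.16, and of these only Apobec1 lost its call with 1 sample left out (without P30, adjusted p = 0.0718). In these fibroblasts Fabp2 lay at 2.62 to 2.73, Apob at 2.57 to 3.16 and Plb1 at 2.76 to 2.86. Those levels are near the dim level of 2.67, so the 3 differences have no exact size. Abca1 had 7.60, 6.29 and 9.26 in fibroblasts, against 3.57 and 3.51 in epithelium, a difference of 4.18 ± 0.75 (adjusted p = 5.34e-04). Cd36 had 8.76, 8.88 and 9.20, against 6.38 and 6.95 in epithelium (2.28 ± 0.39, adjusted p = 3.56e-04). Mgll had 5.25, 5.64 and 7.43, against 3.94 and 3.95 in epithelium (2.16 ± 0.66, adjusted p = 0.0168). Lipa was not called, at 10.85, 10.34 and 11.15 in fibroblasts and 10.39 and 10.81 in epithelium.

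Animal Pl_III had the highest Abca1, Cd36, Mgll, Lipa and Apoc2 of the 3 fibroblast monocultures, but the lowest Scarb1, Dgat2 and Lpcat3 (8.31, 4.97 and 9.49). Of the 3 animals it alone had high Xist (8.25 in monoculture), and its monoculture is the one whose labels name different animals. Pl_III also had the highest mean of the 13 immune markers, 9.08, against 8.46 and 8.49 in Pl_I and Pl_II. Ptprc, the pan-leukocyte marker, lay at 8.03, 7.32 and 8.76 in fibroblast monoculture of these 3 animals, against 2.87 and 2.86 in epithelium. Macrophages are known to express Cd36, Abca1 and Lipa, and the part of such cells in these values was not tested. Without Pl_III in monoculture, Abca1 differed by 3.40 (adjusted p = 9.68e-04) and Cd36 by 2.15 (adjusted p = 0.00162), while Mgll, at 1.5, was no longer called (adjusted p = 0.0507), as it was not without P28 or P30 (0.0741 and 0.0703). The mean of 6 adipocyte markers was 3.76 to 4.20 in fibroblast monoculture and 3.72 to 3.73 in epithelium, but single markers differed in opposite directions. Of the 4 tested, 2 were higher and 2 lower in fibroblasts, where 26.5% and 24.2% of all genes were called. Fabp4 and Lpl averaged 6.02 and 6.78 in fibroblast monoculture, against 1.97 and 2.93 in epithelium monoculture, while Cidec averaged 3.22 against 9.14.

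Within the adenoma group, the animals with T2 in the title were set against the others. Of the 32 genes, 4 were higher and 3 lower in P21 and P23, where 3.65% and 3.49% of all genes were called, and the median was -0.02, against -0.00. Fabp2, Abcg8, Abcg5 and Apoa1 were the higher ones, by 1.24 ± 0.23, 1.32 ± 0.27, 1.13 ± 0.25 and 1.09 ± 0.24 (adjusted p between 0.00714 and 0.0187). Abcg5 lay under the dim level in P34 and P36, so its difference has no exact size. All 4 genes stayed far under the epithelium in every adenoma. Lipa had 7.82 and 7.90 in P21 and P23, against 9.78 and 9.77 in P34 and P36, a difference of -1.91 ± 0.27 (adjusted p = 9.72e-04). Mogat2 differed by -1.73 ± 0.17 (adjusted p = 8.63e-05) and Apob by -1.0 ± 0.26 (adjusted p = 0.0428). In each of the 7 genes both T2-titled animals lay on the same side of both others. This is no separate support, since the genes were picked by a test on the same values.

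Calls of Lipa and Mogat2 held in all 11 alternatives run, whereas those of the other 5 genes did not hold in the fits with 1 adenoma fewer. Apob and Abcg5 lost their calls with any 1 of the 4 adenomas left out (adjusted p = 0.0609 to 0.28), Apoa1 without P23, P34 or P36 (0.0609 to 0.165), Abcg8 without P21 or P34 (0.115 to 0.13) and Fabp2 without P21 or P36 (0.0761 to 0.0852). In those fits the differences stayed at -0.77 to -1.24 for Apob, 0.99 to 1.26 for Abcg5, 0.74 to 1.2 for Apoa1, 1.05 to 1.08 for Abcg8 and 0.91 to 0.95 for Fabp2. With any 1 adenoma left out, 1 to 2 genes were called higher in place of 4. Over the 32 genes, the median absolute difference between animals was 0.17 for P21 and P23 and 0.21 for P34 and P36, and 0.26 to 0.43 for the 4 other pairs. The 2 arrays of 1 animal differed by a median of 0.13 (P21) and 0.15 (P34). The largest differences between such arrays were 1.11 for Apoa4 in P21 and 1.08 for Cd36 in P34, both genes of low level in adenoma. The 9 markers of secretory and stem cells moved with the titles: 5 were higher in T2-titled adenomas and 0 lower, where 3.65% and 3.49% of all genes were called. These markers averaged 7.56 and 7.89 there, against 4.13 and 4.09 in the others and 8.18 and 8.31 in epithelium monoculture. Their part in the differences above was not tested.

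**Figure D4:**
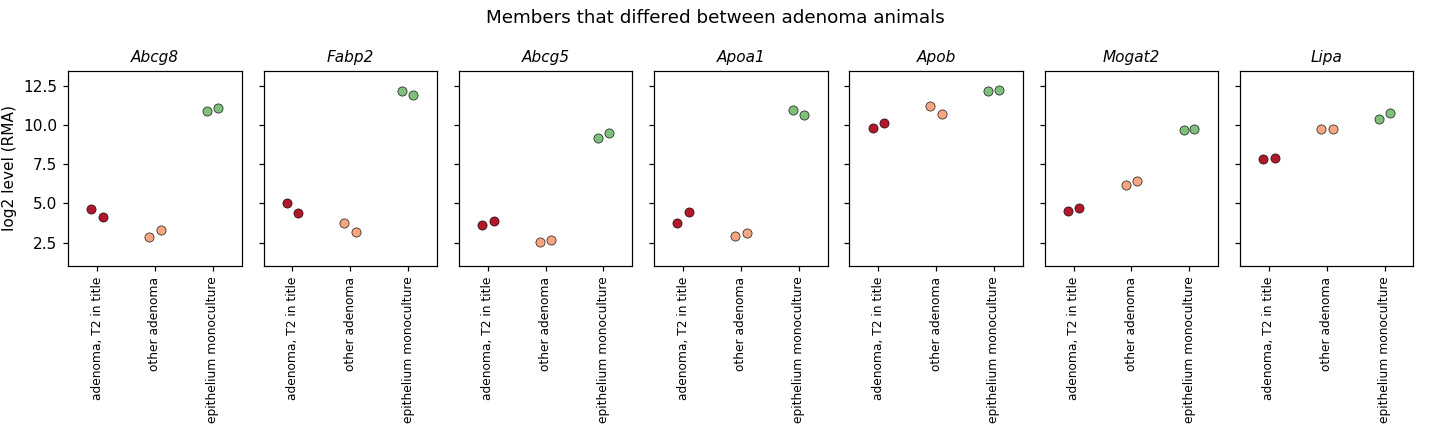
Log2 level of the 7 genes that differed between adenomas, in T2-titled adenomas (P21, P23), other adenomas (P34, P36) and epithelium monoculture; points are samples. Fabp2, Abcg8, Abcg5 and Apoa1 are higher and Lipa, Mogat2 and Apob lower in the T2-titled adenomas, and all stay below epithelium monoculture.

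Fat metabolism genes outside the 34 were read from a wider list of 63, of which 57 were tested. In adenoma against epithelium monoculture 33 fell and 9 rose, where 18.5% of all genes fell and 22.5% rose, and the median was -0.63, against -0.03 over all genes. The share of rises on the list was thus no higher than over all genes. The largest falls were those of the very-long-chain acyl-CoA synthetase Slc27a2, by at least 6.47 since adenoma lies under the dim level (a second, dimmer probe set gave -1.01), Tm6sf2 (-5.87 ± 0.42), a factor of lipoprotein lipidation, the droplet protein Cidec (-4.87 ± 0.37), Pla2g12b (-4.69 ± 0.22) and the endocytic receptor Lrp1 (-4.25 ± 0.29). The largest rises were those of the lysophosphatidylcholine acyltransferases Lpcat1 (2.78 ± 0.19) and Lpcat2 (1.80 ± 0.48), the epidermal-type fatty acid binding protein Fabp5 (2.36 ± 0.29), the fatty acid receptor Ffar4 (1.91 ± 0.46) and Agpat5 (1.73 ± 0.18). Fabp5 thus rose in adenoma while Fabp1 and Fabp2 fell, and its 4 probe sets gave 2.12 to 2.73. Fabp5 also rose in co-cultured epithelium, by 1.66 ± 0.34 (adjusted p = 0.0192), the one rise on that list, where Slc27a2 (-1.62 ± 0.32, and -0.37 on its dimmer probe set), Scp2 (-0.94 ± 0.20), a sterol carrier, and Agpat3 (-0.59 ± 0.13) fell. Over all genes tested, 2.71% rose and 1.32% fell in that comparison. In fibroblasts against epithelium, 16 were higher and 23 lower, where 26.5% and 24.2% of all genes were called. The higher ones included Lpl (3.85 ± 0.75), Pltp (3.56 ± 0.25) and Fabp4, by at least 3.35 since epithelium lies under the dim level. The lower ones included Tm6sf2 (-7.49 ± 0.44) and Mia2, by at least 7.38 since fibroblasts lie under that level. In T2-titled against other adenomas Tm6sf2 was higher (1.51 ± 0.21) and 7 of the 57 genes were lower, led by Agpat4 (-2.75 ± 0.23), where 3.65% of all genes were called higher and 3.49% lower.

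Transcription factors and coactivators of enterocyte and lipid genes fell in adenoma as well: of 19 tested, 14 were lower and 0 higher than in epithelium monoculture, where 18.5% and 22.5% of all genes were called, and the median was -1.72, against -0.03 over all genes. Ppara, the fatty acid receptor of oxidation genes, averaged 3.53 in adenoma and 8.93 in monoculture (-5.40 ± 0.19), and Hnf4g averaged 6.52 in adenoma and 11.45 in monoculture (-4.93 ± 0.18). Mlxipl, Nr5a2 and Cdx1 differed by -4.84 ± 0.57, -4.74 ± 0.40 and -4.59 ± 0.24. Hnf4a, the paralog of Hnf4g, averaged 9.91 in adenoma and 11.12 in monoculture (-1.20 ± 0.27, adjusted p = 0.00351). Pparg was not called (-0.30 ± 0.68). In co-cultured epithelium Ppargc1a (-1.70 ± 0.39, adjusted p = 0.0341) and Ppara (-0.90 ± 0.21, adjusted p = 0.039) fell, while Hnf4a differed by 0.05 ± 0.32 and Hnf4g by -0.68 ± 0.21 (adjusted p = 0.0988). Among the adenomas Mlxipl (2.10 ± 0.25), Cdx2 (1.63 ± 0.17) and Nr5a2 (1.34 ± 0.25) were higher and Gata4 (-1.70 ± 0.24) and Nr1h4 (-1.17 ± 0.23) lower in those titled T2.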

How the data were processed

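RNA (150 ng) was labelled and hybridised to 1-colour whole-transcript arrays, per the labels' protocols. The deposited values are log2 levels. They come from RMA (version unstated), per the submitters' processing notes; RMA equalises arrays, and low levels are compressed. Library file and build: not given in the sources used here. Of 41345 probe sets, 23521 had 1 symbol in the platform annotation. The brightest per gene was kept, and genes were tested where the highest group mean passed the 30th percentile of probe set means (2.67).

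The 16 arrays gave 14 samples of 9 animals in 5 groups taken from the labels, after technical repeats were averaged. One fibroblast monoculture carries different animals in its labels, and its title was followed. A limma 3.58.1 fit in R 4.3.3 used all groups with 1 shared spread (6 groups for the T2 titles), 2-sided tests and Benjamini-Hochberg adjustment over 18095 genes. Cultures of 1 animal are paired by the labels, and their deviations from group means correlated at 0.33 in epithelium and 0.51 to 0.79 in fibroblasts. The functions were tested on simulated data. The genes, lists, tests and alternatives were chosen with earlier results of these data known. Values by sample are given for genes that differ by 3 or more between adenoma and epithelium monoculture, and for those called in co-cultured epithelium or between adenomas; of the wider lists, up to 5 called genes in each direction are named, and Hnf4a, Hnf4g, Ppara and Pparg always.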

Additional observations from a re-analysis of the deposited data

Results flagged for a closer look

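Dgat1 in adenoma animal P21 lay at 7.57, apart from the other 3 adenomas at 7.04 to 7.08. By Dixon's gap test for 4 samples the gap, relative to the group's range, passed the 95% critical value. Chance flags about 1 in 20 such groups, and 32 genes were examined.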

How the results depend on the processing

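Among the counts of called genes, the one that moved most often was that of lower genes in co-cultured epithelium. It was 2 in the reported fit, 1 with no filter on dim genes, 0 with only the groups compared, 4 with the adenomas divided by title, 0 without animals P28 and Pl_III, and 0 to 1 with each sample left out. Without P28 and Pl_III, 3 genes in place of 5 were lower in adenoma than in fibroblasts. Treating the animal as a replicate block gave 2 in place of 0 genes for the difference of co-culture responses and changed no other count of called genes by more than 1.5 times, while calls over all genes in co-cultured epithelium went up to 910 higher and 460 lower, against 490 and 239. For the difference of responses, calls over all genes went up to 451 higher and 168 lower, against 151 and 49. In T2-titled adenomas, 1 to 2 genes in place of 4 were higher with each adenoma left out. All other counts stayed within 1.5 times and no called gene changed sign, with the filter at the 50th percentile, cyclic loess, a trended robust prior, the mean of all probe sets and single arrays of P21 and P34 also run. Outside the replicate block, shares of all genes called are not given beside these counts. A shift across the whole array therefore cannot be told apart from one in these genes. The causes were not tested, except that fits on fewer samples have fewer degrees of freedom. Of the single calls, 15 of 479 were lost for adenoma against epithelium monoculture, 20 of 447 against co-culture, 11 of 26 in co-cultured epithelium and 16 of 77 between adenomas. With RMA values alone, no other background correction could be run, and levels near 2.67 carry no order.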
